A study of Mus musculus with 8 samples.

Results

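The gene set described here holds 35 genes of the cellular response to low oxygen: 16 glycolytic enzymes and 19 other genes that are widely used as targets of hypoxia-inducible factors. Its members were found by name, as the non-control probes of the array that carry 1 of these 35 gene names. They took up 59 of 55681 probes and 35 of 34741 gene names. Gene expression had been measured in the cerebral cortex of newborn mice with one-colour Agilent 8x60K arrays, 1 array per pup. The ischemia group was 4 male pups of the inbred strain C57BL/6NCr whose mothers had their uterine arteries clipped shut for 14 min under anesthesia on embryonic day E16.5. The control group was 4 male C57BL/6NCr pups, and all 8 cortices were taken at postnatal day 1.5. The labels leave out whether control mothers had surgery without occlusion and which pups shared a mother, so p-values measure the spread between the sampled pups. The comparison asks what a brief loss of the uterine blood supply before birth left behind in these genes after birth.

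When oxygen is short, the alpha subunits of hypoxia-inducible factors (HIF) escape hydroxylation and breakdown, pair with ARNT and bind hypoxia response elements near their target genes. The targets move metabolism from respiration to glycolysis: glucose transporters and hexokinases bring in glucose, glycolytic enzymes turn it into pyruvate, lactate dehydrogenase regenerates the cofactor, and pyruvate dehydrogenase kinases hold pyruvate back from mitochondria. Other targets remove mitochondria, slow growth signalling, widen vessels and buffer acid. In control cortex, most glycolytic enzymes of the set were brighter than most probes of the array.

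The core of the hypoxia response element is ACGTG or GCGTG, and it was searched on both strands in the 250 bases before each annotated gene start (RefSeq, GRCm38.p6). Of the 35 genes, 31 had at least 1 such window, 47 windows in all, some of which overlap because a gene has several starts. The windows are shown 5′ to 3′ on the strand of the gene for the 2 members of each class with the smallest p, since these carry the results that follow. Capitals mark each match, CACGT and CACGC being the 2 cores read from the opposite strand. The letters CACGTG, which are also the core of an E-box, hold ACGTG on both strands and count as 2 matches.
Ddit4 upstream window, chr10:59951771-59952020, minus strand: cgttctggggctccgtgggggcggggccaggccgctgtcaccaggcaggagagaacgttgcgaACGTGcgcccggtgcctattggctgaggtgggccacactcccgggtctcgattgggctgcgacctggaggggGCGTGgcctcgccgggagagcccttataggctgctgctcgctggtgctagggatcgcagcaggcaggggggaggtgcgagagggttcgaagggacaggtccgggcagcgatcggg
Higd1a upstream window, chr9:121857797-121858046, minus strand: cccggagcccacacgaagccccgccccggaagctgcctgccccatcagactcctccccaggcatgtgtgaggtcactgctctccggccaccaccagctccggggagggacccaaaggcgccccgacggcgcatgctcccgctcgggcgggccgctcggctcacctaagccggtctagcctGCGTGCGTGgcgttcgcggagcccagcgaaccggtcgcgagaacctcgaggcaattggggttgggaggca
Pgk1 upstream window, chrX:106186850-106187099, plus strand: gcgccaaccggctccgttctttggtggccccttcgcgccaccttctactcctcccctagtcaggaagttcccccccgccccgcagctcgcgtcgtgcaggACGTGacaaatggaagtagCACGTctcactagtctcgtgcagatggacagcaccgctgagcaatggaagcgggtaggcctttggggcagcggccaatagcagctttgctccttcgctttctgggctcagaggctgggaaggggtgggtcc
Ldha upstream window, chr7:46845554-46845803, plus strand: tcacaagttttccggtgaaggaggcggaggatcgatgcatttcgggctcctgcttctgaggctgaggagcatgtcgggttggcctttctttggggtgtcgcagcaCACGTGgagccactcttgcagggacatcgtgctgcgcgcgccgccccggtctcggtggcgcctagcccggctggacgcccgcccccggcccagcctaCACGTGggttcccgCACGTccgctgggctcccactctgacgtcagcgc

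The Ldha window shown held 5 matches to ACGTG, and the Pgk1 window held 2. Ldha has a second window in the table, at chr7:46846832-46847081, which held 0 ACGTG and 1 GCGTG and is not shown, while the other 3 genes have 1 window each. The Ddit4 window held 1 ACGTG and 1 GCGTG, and the Higd1a window held 2 GCGTG that share letters. At least 1 of the 2 cores was present in 36 of the 47 windows (76.6%), in 19 of 26 windows of glycolytic enzymes and in 17 of 21 windows of other hypoxia targets. Of all 32851 windows in the table, 38.6% held either core. ACGTG was found in 44.7% of the members' windows and in 16.6% of all windows, GCGTG in 51.1% and 28.2%, and both cores together in 19.1% and 6.13%. These are matches of letters, not sites shown to be bound. The members were chosen as genes of the hypoxia response, and both cores hold the letters CG. The windows of all genes were not matched to those of the members in base content, so the shares do not measure an excess particular to the element. Bhlhe40, Bnip3l, Ndrg1 and Slc2a3 were not matched in the table of windows.

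The level of a gene is given below as the log2 of its background-corrected probe signal minus the log2 of the 75th percentile of the array, so 0 is the brightness of a probe at that percentile. That percentile lay between 358.5 and 393.3 on ischemia arrays and between 305.6 and 391.4 on control arrays. Between 47.6% and 51.7% of spots were well above background, and 0 spots were saturated. Flagged outlier spots numbered 165 to 189 on ischemia arrays and 134 to 144 on control arrays. All ischemia arrays lay in 1 row of the slide and all control arrays in the other, so the effects of row and group cannot be told apart. All 10 neuron markers that were checked, among them the cortical genes Tbr1 and Bcl11b, were measured on the arrays. Ischemia replicates 1 and 4 stood apart most in genes of tissue around the cortex, and replicate 3 to a lesser degree. The summed level of meningeal markers, on the linear scale relative to the 75th percentile, was 3.36 to 14.7 in ischemia and 3.05 to 4.20 in control arrays, with all 7 markers measured and 6 estimated higher in ischemia. Ptgds, which weighed most in the sums of ischemia replicates 1 and 4, read 3.04 and 3.48 there. It read -0.27 and -0.01 on ischemia replicates 2 and 3, and -1.16 to -0.01 on control arrays. Col1a2 read 1.71, 0.34, 0.64 and 0.32 on ischemia replicates 1 to 4, against 0.06 to 0.44 on control arrays. Col1a1 read -1.29, -4.63, -1.65 and -3.10 on ischemia replicates 1 to 4, against -4.51 to -3.58 on control arrays. Ischemia replicate 3 thus lay above all controls in both genes, with a summed meningeal level of 4.75. Leaving out ischemia replicates 1 and 4 keeps that array. In bulk tissue, fewer cells of a type and less RNA per cell cannot be told apart.

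Differences in hypoxia targets and glycolytic enzymes were small in the cortex at postnatal day 1.5. None of the 33 measurable members passed the adjusted threshold. Their median absolute difference was 0.08, beside a median standard error of 0.07. The 2 members that stood out most were Ddit4, an inhibitor of mTOR signalling, which differed by 0.27, and Higd1a, a protein of the inner mitochondrial membrane, which differed by -0.20. The enzymes of glycolysis were close to the control level, with a median difference of -0.02 over 16 genes, and the other hypoxia targets had a median of 0.09 over 17 genes. Over all genes tested the median was -0.02.

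The test was limma's moderated comparison of 4 ischemia with 4 control arrays over 19751 genes, with Benjamini-Hochberg adjustment, and differences are ischemia minus control on the log2 scale. At an adjusted p under 0.05, 0 of 33 members were called, against 1 gene in all, or 0.00506% of those tested. Without adjustment, 1 member lay higher at p under 0.05 and 1 lower, where 3.25% of all genes were higher and 7.65% lower. The same 2 members, Ddit4 and Higd1a, were those whose groups did not overlap. Over all genes, 2.27% lay wholly higher and 4.28% wholly lower in ischemia.

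**Figure D1:**
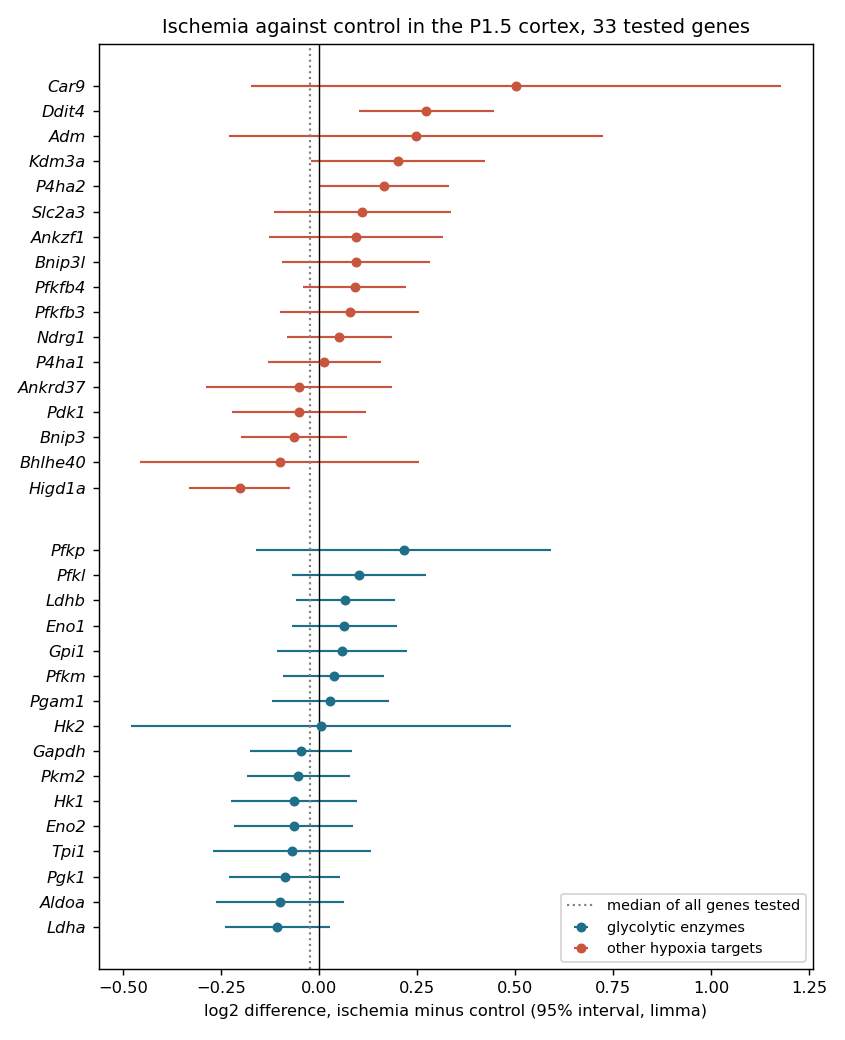
Log2 difference between ischemia and control cortex (x axis, ischemia minus control) for the 33 tested genes (y axis), other hypoxia targets above and glycolytic enzymes below. Points are limma estimates from 4 arrays per group, bars are 95% intervals, and the dotted line is the median of all genes tested, -0.02. The intervals of Ddit4 and Higd1a are the ones that stay clear of 0, while that of Car9 reaches 1.18.

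The spread between pups bounded most of these differences to a narrow range. The median standard error was 0.07 for glycolytic enzymes and 0.08 for other hypoxia targets, against 0.09 over all genes. The 95% interval lay within 0.5 of 0 for 15 of 16 glycolytic enzymes, the exception being Pfkp with an upper bound of 0.59. It lay within 0.5 of 0 for 15 of 17 other targets, the exceptions being Adm and Car9 with upper bounds of 0.73 and 1.18. Of all genes, 75.7% had an interval that narrow. Of the glycolytic enzymes 8 were estimated higher and 8 lower, and of the other targets 12 higher and 5 lower, against 43.0% higher among all genes. With quantile normalization the median of the glycolytic enzymes was 0.03, on the other side of 0.

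Entry of glucose into the cell and its first phosphorylation were close to the control level. Hk1, the main hexokinase of brain, had levels of 8.02, 7.95, 8.03 and 7.92 in ischemia replicates 1 to 4, against 7.99, 8.15, 8.12 and 7.91 in control replicates 1 to 4. All 4 ischemia values lay within the control range, and the difference was -0.06 (SE 0.07), or 0.02 with quantile normalization. Hk2, the hexokinase that HIF induces in many tissues, read -2.84, -2.50, -2.34 and -2.23 in ischemia, against -3.01, -2.31, -2.56 and -2.05 in control cortex. Both groups spread widely and the ischemia values again lay inside the control range. The difference for Hk2 was 0.00 (SE 0.21, 95% interval -0.48 to 0.49), which bounds it only loosely. Slc2a3, the glucose transporter of neurons, read 2.34, 2.09, 2.05 and 2.15 in ischemia, against 1.92, 1.96, 2.03 and 2.28 in control cortex. Ischemia replicate 1 lay above all controls and the other 3 within their range, and the difference was 0.11 (SE 0.10, limma adjusted p = 0.745). It was 0.05 without ischemia replicate 1, 0.07 without control replicate 1, 0.19 without control replicate 4 and 0.02 without ischemia replicates 1 and 4.

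The genes around phosphofructokinase, the step that commits sugar to glycolysis, were all estimated higher in ischemia, and none passed the test. The 6 genes were the isomerase Gpi1, the phosphofructokinase subunits Pfkl, Pfkm and Pfkp, and Pfkfb3 and Pfkfb4, which make the activator of that enzyme. Their differences ran from 0.04 for Pfkm to 0.22 for Pfkp, with a median of 0.08, where 43.0% of all genes tested were estimated higher. Each of the 6 stayed above 0 under every setting tried, with 1 array left out included. Pfkp, chosen after its values were seen, read 0.15, 0.21, -0.30 and -0.36 in ischemia, against -0.04, -0.53, -0.18 and -0.41 in control cortex. Ischemia replicates 1 and 2 lay above all controls and replicates 3 and 4 among them, and a second Pfkp probe gave 0.04. Without ischemia replicate 2 the difference of Pfkp was 0.12, and without ischemia replicate 4 it was 0.31.

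From aldolase to pyruvate more estimates were lower than higher, again without any gene passing the test. Of 8 enzymes, 6 were estimated lower and 2 higher, with a median of -0.06 and a range from -0.10 for Aldoa to 0.06 for Eno1. Among all 19751 genes tested, 11266 were estimated lower. A contrast between this group and that around phosphofructokinase was not tested. Gapdh joined the higher genes with quantile normalization (0.04), and Pgam1 joined the lower ones without control replicate 1 (-0.01). Gapdh, the dehydrogenase of triose phosphate and a frequent reference gene, read 8.43, 8.40, 8.34 and 8.36 in ischemia, against 8.35, 8.50, 8.46 and 8.40 in control cortex. The groups overlapped, and the difference was -0.05 (SE 0.06, limma adjusted p = 0.825). Pgk1, the kinase that makes the first ATP of the pathway, read 4.90, 4.79, 4.77 and 4.96 in ischemia, against 4.97, 4.97, 4.94 and 4.89 in control cortex. Ischemia replicates 2 and 3 lay below all controls and replicates 1 and 4 among them, with a difference of -0.09 (SE 0.06, limma adjusted p = 0.663). The Pgk1 probe is placed by the array's annotation at chr3:57906830-57906894 (mm9), while the gene lies on the X chromosome, so its signal may hold transcripts of a copy elsewhere. Tpi1, Eno2 and Pkm2, which isomerise triose phosphate, dehydrate phosphoglycerate and form pyruvate, differed by -0.07, -0.06 and -0.05, and the mutase gene Pgam1 by 0.03.

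The lactate branch gave the glycolytic enzyme with the smallest p. Ldha, the lactate dehydrogenase subunit that favours lactate formation and whose upstream window is shown above, read 7.09, 7.04, 7.16 and 7.12 in ischemia, against 7.12, 7.24, 7.21 and 7.26 in control cortex. Ischemia replicates 1 and 2 lay below all controls, and the difference was -0.11 (SE 0.06, 95% interval -0.24 to 0.03, limma adjusted p = 0.556). The other Ldha probes both gave -0.07, and the estimate stayed between -0.14 and -0.09 with any 1 array left out. Ldhb, the subunit that favours pyruvate, differed by 0.07 (SE 0.06). Pdk1, a kinase that shuts off pyruvate dehydrogenase, read -1.05, -1.22, -1.32 and -1.23 in ischemia, against -1.10, -1.14, -1.27 and -1.10 in control cortex. Of the ischemia arrays 1 lay above and 1 below all controls, and the difference was -0.05 (SE 0.07).

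**Figure D2:**
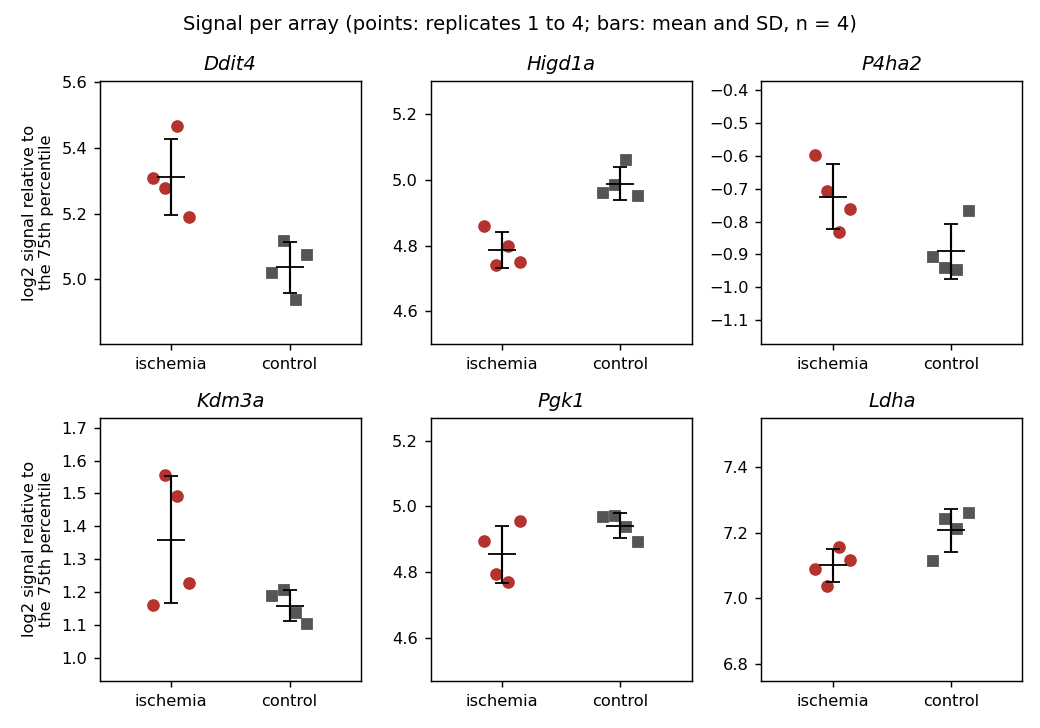
Level on each array (y axis, log2 signal relative to the 75th percentile of the array) for 6 members, with ischemia left of control. Points are replicates 1 to 4 from left to right, and bars give the mean and SD (n = 4). The groups are apart for Ddit4 and Higd1a and overlap for P4ha2, Kdm3a, Pgk1 and Ldha.

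Mitochondrial targets were estimated on both sides of the control level, and Higd1a had the second smallest p of all members. Higd1a, which sits in the inner membrane and associates with respiratory complexes, read 4.86, 4.74, 4.80 and 4.75 in ischemia, against 4.96, 4.98, 5.06 and 4.95 in control cortex. Every ischemia array lay below every control array. The mean was 4.79 ± 0.05 in ischemia and 4.99 ± 0.05 in control cortex (SD, n = 4 each) for the probe at chr9:121758675-121758734 (minus strand, mm9), a fold of 0.869 (95% interval 0.795 to 0.951), and the limma adjusted p was 0.294. A second Higd1a probe, at chr9:121761621-121761680 on the minus strand (mm9), gave -0.18 (SE 0.08). Its sequence is shown because it is a separate probe of the same gene.
A_52_P458697 (Higd1a): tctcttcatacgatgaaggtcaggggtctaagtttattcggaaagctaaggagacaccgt

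This second probe read 3.11, 2.96, 2.95 and 3.07 in ischemia, against 3.03, 3.30, 3.31 and 3.16 in control cortex. The groups of the second probe overlapped through control replicate 1. With any 1 array left out, the Higd1a difference ranged from -0.23 to -0.18. Bnip3, a receptor that marks mitochondria for removal, read 3.93, 3.97, 3.85 and 3.88 in ischemia, against 3.89, 4.05, 3.99 and 3.95 in control cortex, a difference of -0.06 (SE 0.06). Its relative Bnip3l read 4.34, 4.47, 4.64 and 4.45 in ischemia, against 4.25, 4.46, 4.38 and 4.43 in control cortex, a difference of 0.09 (SE 0.08). The groups overlapped for both receptors.

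Genes of stress signalling, blood flow and acid balance were all estimated higher in ischemia, and 1 of the 4 had groups that did not overlap. Among all genes tested, 43.0% were estimated higher and 2.27% lay wholly higher. Ddit4, which is induced by hypoxia and by other stresses and holds back mTOR signalling, read 5.31, 5.28, 5.47 and 5.19 in ischemia, against 5.02, 5.12, 4.94 and 5.08 in control cortex. Its probe lies at chr10:59412486-59412545 on the minus strand (mm9). Every ischemia array lay above every control array. The mean was 5.31 ± 0.12 in ischemia and 5.04 ± 0.08 in control cortex (SD, n = 4 each), a fold of 1.21 (95% interval 1.07 to 1.36), and the limma adjusted p was 0.294. With any 1 array left out the difference ranged from 0.22 to 0.31, and without ischemia replicates 1 and 4 it was 0.34. Ndrg1, a gene of stress and differentiation that hypoxia induces in many cells, differed by 0.05 (SE 0.06).

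Of 7 markers of radial glia and progenitors, all of them measured, 5 were estimated lower in ischemia and 2 higher, with a median of -0.07, and none passed the test. Nes and Fabp7 differed by -0.23 (SE 0.06) and -0.22 (SE 0.06), without overlap of the groups, while the groups overlapped for the other 5. Among all genes tested, 4.28% lay wholly lower in ischemia. Hes5 and Pax6 were the 2 estimated higher, by 0.11 (SE 0.08) and 0.07 (SE 0.22), and Pax6 was at -0.13 without ischemia replicate 1. The summed level of the 7 was 217 to 237 in ischemia and 246 to 260 in control arrays, without overlap, but Fabp7 made up 66.6% to 72.1% of it in ischemia and 71.5% to 73.5% in control arrays. Without Fabp7 the sum was 63.9 to 72.9 in ischemia and 65.3 to 72.4 in control arrays, and the ranges overlapped. The part of these cells in the values of Ddit4 and Higd1a was not tested.

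The largest estimate of the set belonged to Car9, a membrane carbonic anhydrase that HIF induces strongly in tumours, and it had the widest interval. Like Adm, P4ha2 and Kdm3a, it was chosen after its values were seen. Car9 read -2.87, -3.37, -3.02 and -2.04 in ischemia, against -2.98, -3.31, -3.87 and -3.14 in control cortex, and was well above background on 4 of 4 ischemia and 3 of 4 control arrays. Ischemia replicates 1 and 4 lay above all controls and the other 2 among them. The difference was 0.50 (SE 0.30, 95% interval -0.17 to 1.18, limma adjusted p = 0.588). It was 0.24 without ischemia replicate 4, 0.68 without ischemia replicate 2 and 0.13 without ischemia replicates 1 and 4.

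Ischemia replicate 4, where Car9 was highest, was also the array with by far the most signal from choroid plexus markers. The summed level of the 5 measured choroid plexus markers was 3.03 to 117 in ischemia and 2.93 to 3.15 in control arrays. Ttr read 6.76 on ischemia replicate 4, against -4.31 to -1.90 on the other 3 ischemia arrays and -3.56 to -3.21 on control arrays. On ischemia replicates 1 and 3 Ttr also lay above all controls, at -3.01 and -1.90, and the summed level on replicate 1 was 3.85. Of the 5 markers 4 were estimated higher in ischemia, and Kl, Clic6 and Kcnj13 were too dim to be tested. The part of choroid plexus in the Car9 value was not tested beyond leaving out that array. Adm, which encodes the vessel-widening peptide adrenomedullin, read -2.91, -2.55, -3.42 and -3.44 in ischemia, against -3.39, -3.25, -3.58 and -3.09 in control cortex. Ischemia replicates 1 and 2 lay above all controls, and the difference was 0.25 (SE 0.21), but 0.07 without ischemia replicate 2 and 0.02 with normexp background correction.

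Targets that modify proteins and chromatin gave small estimates. P4ha2, a subunit of the prolyl hydroxylase that matures collagen, read -0.60, -0.71, -0.83 and -0.76 in ischemia, against -0.91, -0.94, -0.95 and -0.77 in control cortex. Of the ischemia arrays 3 lay above all controls, with a difference of 0.17 (SE 0.07, limma adjusted p = 0.459), or 0.09 with normexp background correction. P4ha1, which encodes the alternative subunit, differed by 0.01 (SE 0.06). Kdm3a, a histone demethylase, read 1.16, 1.56, 1.49 and 1.23 in ischemia, against 1.19, 1.21, 1.14 and 1.10 in control cortex. Ischemia replicates 2, 3 and 4 lay above all controls, replicates 2 and 3 by the most, and the difference was 0.20 (SE 0.10, limma adjusted p = 0.498). It was 0.14 without ischemia replicate 2 and 0.37 (limma adjusted p = 0.245) without ischemia replicates 1 and 4. The repressor Bhlhe40 differed by -0.10 (SE 0.16), and by 0.02 without control replicate 3. The ankyrin repeat gene Ankrd37 differed by -0.05 (SE 0.10) and Ankzf1, a factor of protein quality control, by 0.09 (SE 0.10). The remaining 2 members could not be tested. Ero1l, an oxidase of the endoplasmic reticulum now named Ero1a, was well above background on 1 of 4 ischemia and 0 of 4 control arrays, and Mxi1, an antagonist of Myc, on 0 of 8.

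**Figure D3:**
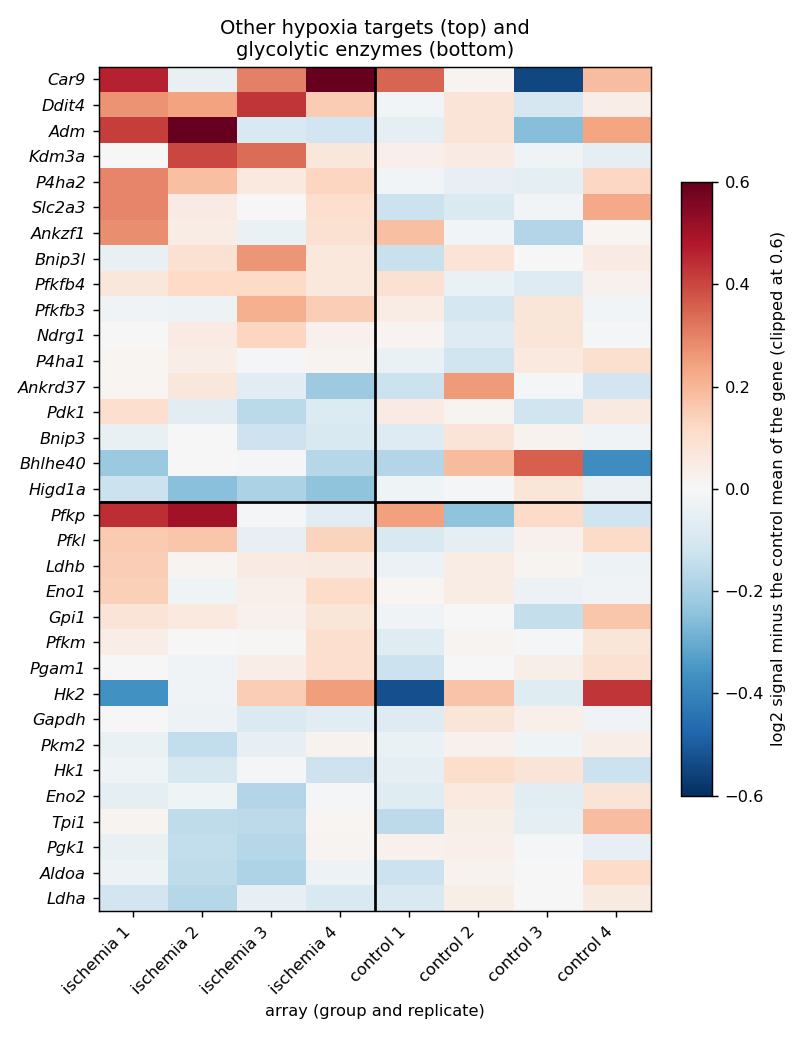
Level of each tested member (rows) on each array (columns, ischemia left of control) as log2 signal minus the control mean of the gene, red above and blue below it, with the colour clipped at 0.6. Ddit4 is red on all 4 ischemia arrays and Higd1a blue on all 4, Car9 is darkest on ischemia replicate 4, and the glycolytic enzymes show no block by group.

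Read array by array, the glycolytic enzymes varied as much among control pups as between the groups. Of the 16 enzymes, 8, 5, 6 and 10 lay above their control mean in ischemia replicates 1 to 4, against 3, 14, 7 and 10 in control replicates 1 to 4. Their median deviation from the control mean ran from -0.03 to 0.02 in ischemia arrays and from -0.07 to 0.06 in control arrays. Of the 17 other targets, 12, 13, 9 and 11 lay above their control mean in ischemia arrays, against 7, 9, 7 and 10 in control arrays. Their median deviation ran from 0.00 to 0.07 in ischemia arrays and from -0.02 to 0.02 in control arrays, and the ranges overlapped. Of all 19751 genes tested, 8771, 8533, 9268 and 9100 lay above their control mean in ischemia replicates 1 to 4. In control replicates 1 to 4 it was 9738, 11134, 10141 and 9316. The control mean includes the control arrays, so the counts of the groups are not a like comparison.

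Several probes of a gene gave a second look at 10 members, which together with the single-probe genes kept 55 of the 59 probes. For Hk1, Gapdh, Bnip3 and Bnip3l the kept probes differed in sign, over ranges of -0.06 to 0.02 for Hk1, -0.06 to 0.01 for Bnip3 and -0.00 to 0.11 for Bnip3l. The widest range was that of the 8 Gapdh probes, from -0.18 (SE 0.07) to 0.10 (SE 0.06). The 2 probes at these ends lie less than 1 kb apart on the minus strand of chromosome 6 in mm9, at chr6:125112979-125113038 for the lower and chr6:125113229-125113288 for the higher estimate. They are shown because they measure neighbouring stretches of the same gene with opposite sign.
A_55_P2088912 (Gapdh, -0.18): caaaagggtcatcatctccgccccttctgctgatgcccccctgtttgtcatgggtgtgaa
A_55_P1965725 (Gapdh, 0.10): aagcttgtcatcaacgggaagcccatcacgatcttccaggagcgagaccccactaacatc

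The brightest Gapdh probe, which stands for the gene above, is placed by the array's annotation at chr7:59003199-59003257 and a further one at chr8:94212520-94212579, while the gene lies on chromosome 6. Gapdh has many near-identical copies in the mouse genome, so the share of its signal that comes from each is uncertain. The placements differed little in value, with -0.05 for the probe placed on chromosome 7 and 0.03 for the one on chromosome 8. All 3 Gpi1 probes were estimated higher in ischemia, from 0.06 to 0.16, and all probes of Ldha, Tpi1 and Higd1a lower.

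**Figure D4:**
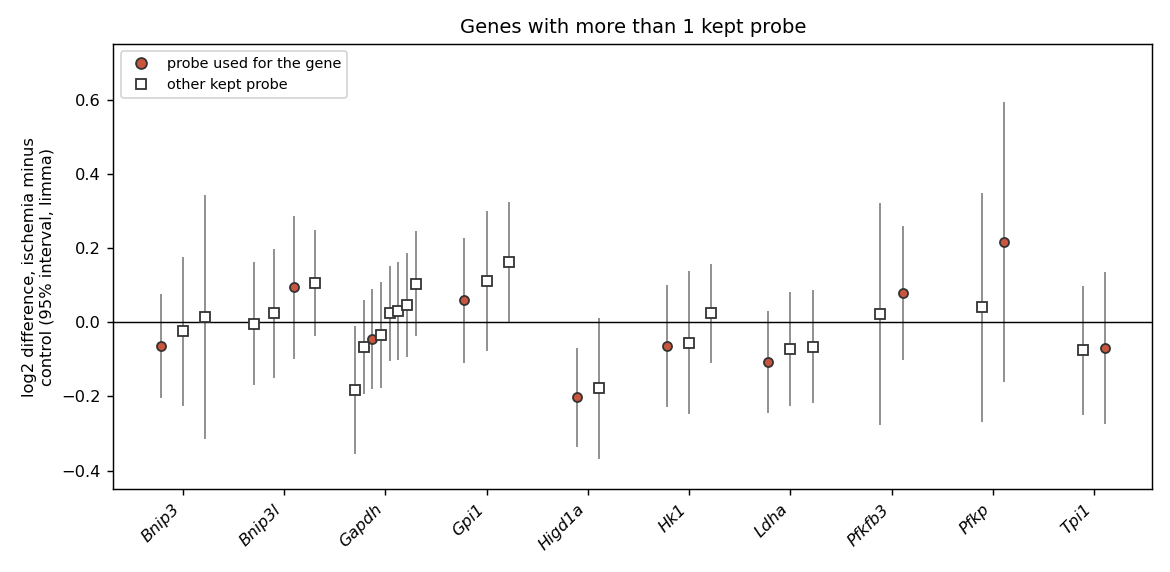
Log2 difference (y axis, ischemia minus control) of each kept probe for the 10 genes with more than 1 (x axis), with 95% limma intervals from 4 arrays per group. Filled points are the brightest probe, used for the gene, and open squares the other probes. Both Higd1a probes lie near -0.20 and -0.18, while the 8 Gapdh probes span 0 from -0.18 to 0.10.

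Further genes of the same pathways were also without a gene past the adjusted threshold. Of 23 measured further hypoxia targets 11 were estimated higher and 12 lower, with a median of -0.00, and 3 were higher and 2 lower at an unadjusted p under 0.05. Among all genes tested, 3.25% were higher and 7.65% lower at that limit. Igfbp3, which binds insulin-like growth factors, differed by 0.44 (SE 0.10, limma adjusted p = 0.236), and Loxl2, a collagen crosslinking enzyme, by -0.33 (SE 0.08, limma adjusted p = 0.262). The groups did not overlap for either gene. Of the 23 targets, 1 lay wholly higher and 3 wholly lower in ischemia, where 2.27% of all genes lay wholly higher and 4.28% wholly lower. The other 3 with an unadjusted p under 0.05 were named after their values were seen. They were the glucose transporter Slc2a1 at 0.34 (SE 0.13), the vessel growth factor Vegfa at 0.18 (SE 0.08) and the cytokine Mif at -0.17 (SE 0.06). Mif was among the targets that lay wholly lower, while the groups overlapped for Slc2a1 and Vegfa. Slc2a1 read 2.55, 2.79, 2.74 and 2.18 in ischemia, against 2.17, 2.15, 2.27 and 2.31 in control cortex. Ischemia replicates 1 to 3 lay above all controls and replicate 4 among them.

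Of 10 genes of the HIF pathway itself 6 were estimated higher and 4 lower, with a median of 0.02. Hif3a, a HIF alpha subunit with inhibitory forms, read -0.03, 0.71, -0.05 and -1.44 in ischemia, against -1.38, -1.97, -1.96 and -1.55 in control cortex. Ischemia replicates 1 to 3 lay far above the controls and replicate 4 within their range, and the difference was 1.51 (SE 0.40, limma adjusted p = 0.278). Epas1, the HIF alpha subunit of endothelium and glia, read 3.30, 3.24, 3.28 and 3.29 in ischemia, against 3.47, 3.57, 3.54 and 3.33 in control cortex. All its ischemia values lay below all controls, with a difference of -0.20 (SE 0.07, limma adjusted p = 0.353), but the mean of all its kept probes gave 0.03. Of the 10 genes 1 lay wholly higher in ischemia and 1, Epas1, wholly lower. Among all genes tested the shares were 2.27% and 4.28%.

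Of 18 measured further genes of glycolysis and pyruvate use 8 were estimated higher and 10 lower, with a median of -0.01. Pdk4, another kinase of pyruvate dehydrogenase, differed by 0.32 (SE 0.13) and Aldoc, the aldolase of astrocytes, by 0.26 (SE 0.11), with limma adjusted p-values of 0.419 and 0.439. Astrocyte markers, of which Aldoc is 1, were estimated higher for 5 of 7 genes, all of them measured, with a summed level of 128 to 167 in ischemia and 110 to 132 in control arrays. Aldoc itself made up 87.5% to 89.4% of that sum in ischemia and 86.6% to 89.3% in control arrays. The other 6 markers summed to 16 to 17.7 in ischemia and 13.5 to 17.5 in control arrays, with overlap, and the part of astrocytes in the Aldoc value was not tested. The pentose phosphate pathway, which draws glucose off for NADPH, had 3 genes higher and 4 lower of 7, with a median of -0.02. Its smallest p belonged to the lactonase Pgls at -0.11 (SE 0.07) and the transaldolase Taldo1 at -0.07 (SE 0.05).

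**Figure D5:**
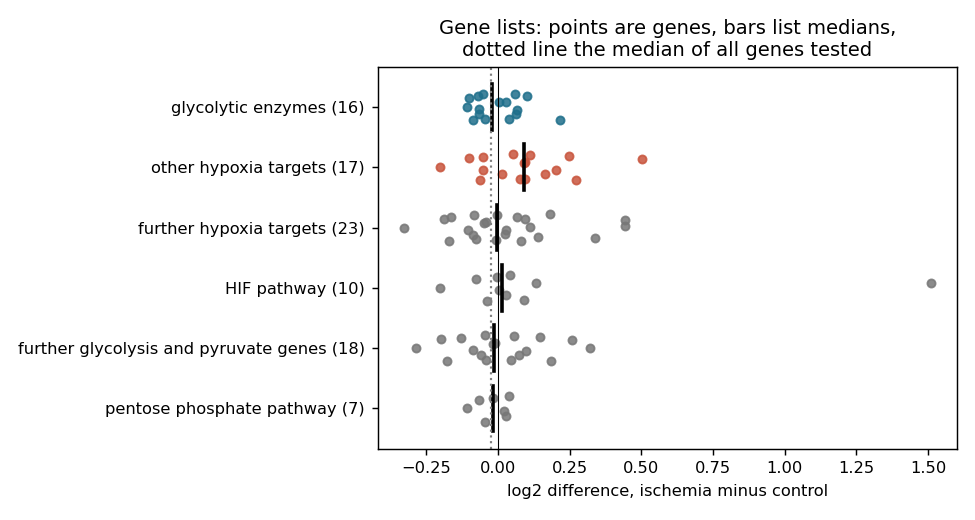
Log2 difference (x axis, ischemia minus control) of each measured gene in 6 gene lists (y axis, with the number of genes). Points are genes, thick bars are list medians, and the dotted line is the median of all genes tested. The 6 medians lie between -0.02 and 0.09, and the lone point at 1.51 is Hif3a.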

How the data were processed

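RNA from the cortex of 8 pups was amplified from 50 ng and labelled with Cy3, per the labels' protocols. Agilent Feature Extraction 10.7.3.1 read the scans, per the submitters' processing notes. The deposited intensities used are linear: each spot's processed signal, which the software corrected for background, and, for the normexp alternative, its mean signal and local background. The value table deposited by the authors is a ratio, in which each column, checked against the scanner files, equals that signal over a constant, which lies within 0.0107% of the 75th percentile over all spots. The medians of its columns ran from 0.0836 to 0.1003.

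Each array held 59305 non-control spots. Spots of a probe were averaged, 26 probes with only outlier spots on some array were dropped, and log2 signals were set relative to each array's 75th percentile of non-control spots. Probes well above background on at least 4 of 8 arrays were kept (27131), and the brightest stood for its gene (19751 genes). Names were updated with RefSeq genes of GRCm38.p6: 27235 probes through an accession, 3581 through a current and 565 through an older symbol, while 24300 kept the file's name. Probe coordinates are those of the files, in mm9. The exon or UTR in which a probe lies was not analysed here.

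Ischemia was set against control with lmFit and eBayes of limma 3.58.1, run in R 4.3.3 with no covariate, and the scripts were tested on simulated data. The number of arrays limits the precision. Members, gene lists and rules were chosen with earlier results of these data known. Values on every array are given for members with p under 0.05, the 2 of each class with the smallest p, those whose probes differ in sign, and Gapdh, Pgk1, Ldha, Slc2a3, Hk2, Bnip3 and Pdk1 as fixed examples. The 2 genes with the smallest p are named from each further list, and any other gene was chosen with its values in view. Alternatives were normexp (offset 50), median and quantile scaling, other filters and probe rules, array weights, a trended and robust variance, the replicate number as a block, the authors' table, a threshold of 0.1, each array left out in turn and, added after the data were seen, ischemia replicates 1 and 4 left out together and marker sums without the brightest gene of the list.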

Additional observations from a re-analysis of the deposited data

Results flagged for a closer look

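In 82 sets of 4 arrays of 1 gene and group, Dixon's ratio was used to find an array apart from the other 3 at its 95% critical value. It found 2, where chance flags about 1 in 20 sets, or 4.1 of 82. Pfkl in ischemia had a ratio of 0.853, with ischemia replicate 3 at 0.34 and the other 3 arrays between 0.53 and 0.56. Without that array Pfkl differed by 0.15. Igfbp3 in ischemia had a ratio of 0.852, with ischemia replicate 4 at -0.72 and the others between -0.35 and -0.29.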

How the results depend on the processing

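No member passed the adjusted limma threshold under any of 21 alternative settings. Of the 33 members tested, 26 kept the sign of their difference under all of them. The sign turned for Gapdh (0.038) and Hk1 (0.021) with quantile normalization, for Hk2 (-0.073) and P4ha1 (-0.0023) with normexp, and for Ankrd37 (0.00040) without ischemia replicates 1 and 4. With 1 array left out, it turned for Hk2 (-0.17 to 0.15), Pgam1 (-0.014 to 0.059), P4ha1 (-0.026 to 0.046), Bhlhe40 (-0.22 to 0.018) and Ankrd37 (-0.095 to 0.033). Leaving out 1 array moved the difference by over 1.5 times, or turned it, for 25 of the 33. Of 19 other genes named, Epas1 turned (0.031 with the mean of a gene's probes), as did Pax6 (-0.16 without ischemia replicates 1 and 4, -0.13 to 0.20 with 1 array left out), and none passed. The cause was not tested. The count over all genes, 1 in the main setting, was 3 at an adjusted p under 0.1, 2 with median scaling and 20 with a trended and robust variance. It was 0 with normexp, with quantile normalization, with no filter, with only probes measured above background throughout, with each probe tested on its own and without ischemia replicates 1 and 4, and 0 to 1 with 1 array left out. The median of the glycolytic enzymes was 0.029 with quantile normalization and -0.069 to 0.024 with 1 array left out. That of the other targets was 0.055 with the mean of a gene's probes, 0.062 with normexp, and 0.037 to 0.098 with 1 array left out. That of the further hypoxia targets was 0.033 with array weights and -0.045 to 0.024 with 1 array left out. The median of all genes was -0.01 with quantile normalization. With median scaling 1 member had an unadjusted p under 0.05.

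Replicate numbers are shared by the groups and match the column of the slide. Deviations of same-numbered arrays from their group means correlated at 0.08, -0.06, 0.29 and 0.39 over genes. Arrays of different number correlated at -0.23 to 0.18, so the values of replicates 3 and 4 were the highest. The labels do not say which pups shared a mother, and the main fit did not pair them. The part of the slide column in these values was not tested. With the replicate block 0 genes and 0 members passed. Dim probes such as those of Hk2, Adm and Car9 have wide intervals, which bound their differences only loosely with 4 arrays per group.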

Other observations

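Other cell types that the cortex samples could hold were followed through short marker lists, and none of their genes passed the adjusted limma threshold. For comparison, 3.25% of all genes tested were higher and 7.65% lower at an unadjusted p under 0.05. The groups did not overlap for 2.27% that lay higher and 4.28% that lay lower. All 4 measured erythroid markers were estimated lower in ischemia, with a median of -0.51, 3 of them at an unadjusted p under 0.05. Their summed level was 148 to 248 in ischemia and 198 to 358 in control arrays, and the ranges overlapped. Hba-a2 made up 81.1% to 83.4% of that sum in ischemia and 81.9% to 83.2% in control arrays. All 6 markers of the oligodendrocyte lineage were estimated higher, with a median of 0.09 and 0 at an unadjusted p under 0.05. Of 7 microglial markers 4 were estimated higher and 3 lower, with a median of 0.14, and 2 were higher and 1 lower at an unadjusted p under 0.05. Of 7 endothelial markers 4 were higher and 3 lower, with a median of 0.02, and 1 was higher and 1 lower at an unadjusted p under 0.05. The estimates within both lists went in opposite directions, as 4 genes chosen with their values in view show. In the endothelial list Ly6c1, which has a near-identical neighbour, differed by 0.84 (SE 0.19) and Kdr, a receptor for vascular growth factor, by -0.31 (SE 0.07), each without overlap of the groups. In the microglial list the complement gene C1qa differed by 0.42 (SE 0.10), without overlap, and the purine receptor gene P2ry12 by -0.30 (SE 0.10), with overlap. Of 5 markers of pericytes and vascular smooth muscle 2 were estimated higher and 3 lower, with a median of -0.06 and 1 lower at an unadjusted p under 0.05. The 10 neuron markers had a median of -0.02, with 4 higher and 6 lower, 1 of the lower ones at an unadjusted p under 0.05. The part of these cells in the values of the hypoxia targets was not tested.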
